A study of Mus musculus with 6 samples.

Results

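TGF-β, activin and SMAD genes were examined in primary mouse bone-marrow-derived macrophages (BMDMs) as 10 genes picked by symbol, of the 54532 genes in the deposited table. They were the ligand genes Tgfb1 and Inhba, the receptor genes Tgfbr1 and Tgfbr2, the SMAD genes Smad2, Smad3 and Smad7, and the corepressor genes Tgif1, Ski and Skil. BMDMs from wild-type C57BL/6 mice, grown with medium conditioned by L929 fibroblasts, were left untreated (Untr), stimulated with 100 ng/ml of the bacterial cell wall component LPS for 2 h (LPS), or first given 5 mM of the antidiabetic drug metformin for 6 h and then LPS at the same dose and time (Met + LPS). Each group had 2 RNA-seq libraries, replicates 1 and 2, and no group received metformin alone. The study seeded the cells in duplicate, and nothing in the sources used here says that the replicates come from separate mice, so p-values measure only the spread between these libraries, which may be technical.

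TGF-β1 is secreted in a latent form, and activin A is a dimer of the inhibin beta-A chain that Inhba encodes. Both act through paired serine/threonine kinase receptors, of which Tgfbr2 and Tgfbr1 encode the type II and type I receptors of TGF-β, and the activated type I receptor phosphorylates the transcription factors SMAD2 and SMAD3, which enter the nucleus with SMAD4. SMAD7 blocks the receptor and is itself a target of the pathway, while TGIF1, SKI and SnoN (the product of Skil) bind SMADs and repress their targets. In macrophages TGF-β is best known as a brake on inflammatory activation, and activin A as a cytokine released upon Toll-like receptor stimulation.

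Values are TPM, read counts divided by gene length and scaled to sum to 1000000 in each library, so that levels can be compared between genes. Reads recovered from the TPM values amounted to 25457016 to 30762754 per library. Changes are log2 fold changes of TPM + 1, on which changes at low TPM appear smaller than they are. A gene passed the test at an adjusted p-value under 0.01 in limma with all 12755 tested genes in the adjustment. All 10 genes were among those tested, and the exons of none of them overlapped another annotated gene. Groups without overlap between their libraries were common. Of all tested genes, 91.6% had none in LPS vs. untreated, 73.8% in Met + LPS vs. LPS and 90.7% in Met + LPS vs. untreated. The median of all tested genes was -0.48 in LPS vs. untreated and -0.48 in Met + LPS vs. untreated, but -0.03 in Met + LPS vs. LPS. Many of the comparisons with untreated cells are therefore also given after the libraries were rescaled by the median ratio over genes. Those given without a rescaled value are as deposited, and rescaling shifts them upward too. All 7 macrophage markers were detected, with a summed level of 43710 to 45600 TPM in Untr, 34526 to 35264 in LPS and 28763 to 28884 in Met + LPS. Most of this sum was Lyz2, at 33981 and 35844 TPM in Untr and 26974 and 26696 in LPS. From Untr to LPS, Cd68, Csf1r, Itgam and Mertk also fell. Adgre1 rose (1510 and 1575 TPM to 1750 and 1684), and Fcgr1 overlapped. The 4 fibroblast, 4 T cell and 3 B cell markers were all below 1 TPM in every library. The 5 markers of neutrophils and their precursors, of which Ly6g was at 0 in 5 of the 6 libraries, summed to 24.4 to 30.9 TPM in Untr and LPS and 40.2 to 42.0 in Met + LPS, and their part in the results was not tested. In such bulk libraries, fewer cells with a transcript and less transcript per cell cannot be told apart.

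The stretches of 250 bases before the annotated starts were taken from RefSeq (GRCm38.p6), which held windows for 7 of the 10 genes. Those of Inhba (chr13:16011601-16011850, plus strand) and Smad3 (chr9:63757995-63758244, minus strand) are shown because both transcripts were highest in Met + LPS, that of Ski (chr4:155222536-155222785, minus strand) because it fell after LPS, and the fourth of the 5 Tgif1 windows (chr17:70849791-70850040, minus strand) because Tgif1 changed in opposite directions in the 2 steps and this window held matches to the NF-κB site. Capitals mark matches to the motifs searched.
Inhba: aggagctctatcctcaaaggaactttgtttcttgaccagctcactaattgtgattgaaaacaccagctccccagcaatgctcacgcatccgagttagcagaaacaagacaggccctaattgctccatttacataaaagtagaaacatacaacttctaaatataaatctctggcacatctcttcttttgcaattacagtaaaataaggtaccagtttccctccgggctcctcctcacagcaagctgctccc
Smad3: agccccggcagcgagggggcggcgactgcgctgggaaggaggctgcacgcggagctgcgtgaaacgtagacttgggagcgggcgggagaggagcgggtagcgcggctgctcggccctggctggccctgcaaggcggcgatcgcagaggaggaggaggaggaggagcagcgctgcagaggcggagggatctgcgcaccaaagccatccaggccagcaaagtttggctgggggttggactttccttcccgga
Ski: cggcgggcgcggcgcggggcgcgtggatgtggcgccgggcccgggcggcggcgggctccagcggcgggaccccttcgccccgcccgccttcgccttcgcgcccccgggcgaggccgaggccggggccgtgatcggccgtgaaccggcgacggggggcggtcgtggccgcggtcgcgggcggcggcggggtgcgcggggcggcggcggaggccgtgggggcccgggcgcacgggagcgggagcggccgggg
Tgif1: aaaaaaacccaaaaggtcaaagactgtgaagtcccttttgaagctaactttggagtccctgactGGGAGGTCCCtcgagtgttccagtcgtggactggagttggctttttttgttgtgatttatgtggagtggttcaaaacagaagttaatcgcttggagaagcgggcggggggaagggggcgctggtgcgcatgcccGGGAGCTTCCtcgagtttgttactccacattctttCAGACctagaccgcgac

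The motifs, searched on both strands, were the SMAD palindrome GTCTAGAC, the SMAD box CAGAC, the AP-1 site TGANTCA, the cyclic AMP response element TGACGTCA, the ATF4-CHOP element TGATGNAA and the NF-κB site. Over 32817 promoter windows of the same length, 0.168%, 42.2%, 6.75%, 1.55%, 3.45% and 7.25% held them, in this order. The Inhba, Smad3 and Ski windows held no match to any of them. The fourth Tgif1 window held 2 matches to the NF-κB site, which began 186 and 52 bases before the start, and 1 SMAD box, which began 17 bases before it. The Tgfb1 window held 1 match to the NF-κB site, the first and second Tgif1 windows held 1 and 2 SMAD boxes, and the windows of Tgfbr2 and of the second of the 2 Tgfbr1 starts held 1 SMAD box each. Of the windows printed, that of Inhba held 43.2% G and C and that of Ski 87.6%. TPM per gene do not show which of the Tgif1 starts was used.

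**Figure D1:**
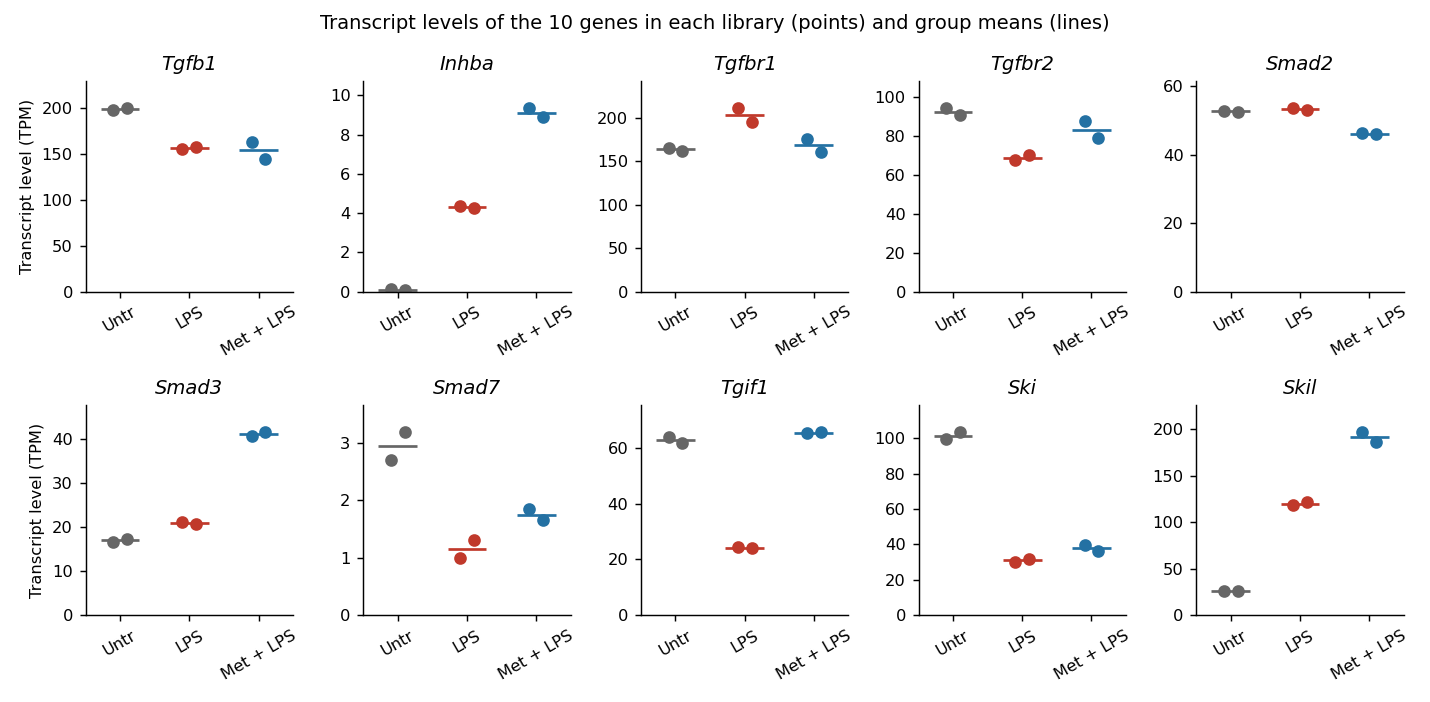
Transcript levels (TPM, vertical axis from 0) of the 10 genes in the untreated (Untr), LPS and Met + LPS libraries, with a point for each library and a line for the mean of 2. Skil, Inhba and Smad3 step upward from Untr to LPS to Met + LPS, whereas Tgif1 is low in LPS alone.

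The 10 genes took several distinct courses. Skil and Inhba rose after LPS and were higher still after metformin pretreatment, and Smad3 rose slightly after LPS and by 1.96 times (ratio of means) with metformin. Tgif1 fell by 61.5% after LPS, and in Met + LPS it was at 65.5 TPM, near its untreated level of 62.9 TPM, although 0.59 above it on the log2 scale after rescaling. Ski fell by 69.4% after LPS and stayed low in Met + LPS, so that Skil took its place as the more abundant of these related corepressor transcripts.

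Tgfb1 was the most abundant of the 10 transcripts in untreated BMDMs, at 198 and 199.8 TPM. It was at 156 and 158 TPM in LPS and at 164 and 145 TPM in Met + LPS, so that the LPS libraries lay below the untreated libraries and within the range of the Met + LPS libraries. In LPS vs. untreated Tgfb1 was at -0.34 on the log2 scale (standard error 0.06, adjusted p = 0.0012 by limma), smaller in size than the median shift of all genes, and it was 0.18 after rescaling (adjusted p = 0.026). Metformin pretreatment left no detectable difference, with a log2 fold change of -0.03 and a 95% interval of -0.16 to 0.11 (adjusted p = 0.72 in limma).

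Inhba was barely detected in untreated BMDMs, at 0.123 and 0.0655 TPM, which rest on 6 and 3 reads. It was at 4.36 and 4.25 TPM in LPS and at 9.34 and 8.89 TPM in Met + LPS, and the 3 groups did not overlap. By reads, its level in LPS was 45.1 times that in Untr (95% exact binomial interval 23.5 to 99.4, for counting error only). The log2 fold change of TPM + 1 was 2.28 in LPS vs. untreated (standard error 0.09, or 2.44 after rescaling), but with a pseudocount of 0.1 it was 4.52. This gene passed the filter on low values only through the stimulated libraries. No p-value against untreated cells is therefore given for Inhba, although it is part of the counts below. Met + LPS vs. LPS, where both groups are well above this floor, gave 0.93 on the same scale (standard error 0.09, adjusted p = 3.7e-04), or 2.11 times by reads (95% exact binomial interval 1.88 to 2.38). The other activin and inhibin chains, Inhbb and Inha, were below the filter. Inha was at 0 TPM in every library. Inhbb, which was not tested, was at 0.0618 and 0 TPM in Untr. It was at 0.741 and 0.515 TPM in LPS and at 0.746 and 1.06 TPM in Met + LPS.

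Tgfbr1 and Tgfbr2 moved in opposite directions in each step in TPM as deposited, but not after rescaling in LPS vs. untreated. Tgfbr1, the type I receptor, was at 166 and 162 TPM in Untr, 211 and 195 TPM in LPS and 176 and 161 TPM in Met + LPS. Tgfbr2, the type II receptor, was at 94.2 and 91.0 TPM in Untr, 67.6 and 70.2 TPM in LPS and 87.8 and 79.0 TPM in Met + LPS. After LPS, Tgfbr1 rose by 0.31 on the log2 scale (adjusted p = 0.0018) and Tgfbr2 fell by 0.42 (adjusted p = 4.1e-04 in limma), although after rescaling Tgfbr2 was at 0.10 (adjusted p = 0.17) and Tgfbr1 at 0.83. Without untreated replicate 2 or LPS replicate 1 the adjusted p-value of Tgfbr1 was 0.0101 and 0.0104. With metformin Tgfbr1 was lower (-0.27, standard error 0.06, adjusted p = 0.0079) and Tgfbr2 higher (0.27, standard error 0.06, adjusted p = 0.0083), both small changes close to the cut-off. Relative to untreated cells, Tgfbr1 in Met + LPS differed by 0.04 (95% interval -0.10 to 0.17, adjusted p = 0.55) and Tgfbr2 by -0.15 (-0.29 to -0.01, adjusted p = 0.042), which after rescaling became 0.57 and 0.38.

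The receptor-activated SMADs diverged. Smad3 was at 16.5 and 17.4 TPM in Untr, 21.1 and 20.8 TPM in LPS and 40.8 and 41.5 TPM in Met + LPS, and the 3 groups did not overlap. Smad3 rose by 0.94 on the log2 scale from LPS to Met + LPS (standard error 0.05, limma adjusted p = 2.7e-05). From Untr to LPS it rose by 0.29 (standard error 0.05, adjusted p = 0.0010), or by 0.79 after rescaling. Smad2, by contrast, was at 52.7 and 52.5 TPM in Untr, 53.4 and 52.9 TPM in LPS and 46.2 and 46.0 TPM in Met + LPS. Its log2 fold change in LPS vs. untreated was 0.02 (95% interval -0.07 to 0.10, adjusted p = 0.70) in TPM as deposited, while most genes were lower in LPS, and 0.53 after rescaling (adjusted p = 1.7e-05). In Met + LPS vs. LPS Smad2 fell by 0.20 on the log2 scale (standard error 0.04, adjusted p = 0.0038).

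Smad7, the inhibitory SMAD, was scarce throughout, at 2.71 and 3.18 TPM in Untr, 0.988 and 1.30 TPM in LPS and 1.84 and 1.65 TPM in Met + LPS. These values rest on 34 to 103 reads per library. Both LPS libraries lay below both untreated libraries, and the difference of -0.88 on the log2 scale (standard error 0.13, limma adjusted p = 7.1e-04) was -0.53 after rescaling, where it missed the cut-off (adjusted p = 0.011). Both Met + LPS libraries lay above both LPS libraries, but the difference of 0.36 (95% interval 0.04 to 0.68, adjusted p = 0.064) did not pass the test, and it ranged from 0.36 to 0.61 over the alternatives other than leaving out a library. Smad6, the other inhibitory SMAD, was below the filter, with 0.342 to 0.821 TPM.

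Tgif1, a homeodomain corepressor of SMAD2 and SMAD3, showed the largest response to metformin of the 10. It was at 64.0 and 61.9 TPM in Untr, 24.4 and 24.0 TPM in LPS and 65.4 and 65.6 TPM in Met + LPS. The LPS libraries stood apart from the other 4, the lowest of which was at 61.9 TPM. The log2 fold change was -1.34 in LPS vs. untreated (standard error 0.04, adjusted p = 3.3e-07 in limma; -0.83 after rescaling) and 1.40 in Met + LPS vs. LPS (standard error 0.04, adjusted p = 6.1e-06), which was rank 112 from the top of the 12755 tested genes. Met + LPS vs. untreated gave 0.06 (95% interval -0.04 to 0.15, adjusted p = 0.21) in TPM as deposited and 0.59 after rescaling (adjusted p = 1.7e-05).

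Skil, which encodes SnoN, was at 26.1 and 26.6 TPM in Untr, 118 and 122 TPM in LPS and 197 and 186 TPM in Met + LPS, where it was the most abundant of the 10. Ski, its paralog, was at 99.4 and 103 TPM in Untr, 30.3 and 31.8 TPM in LPS and 39.6 and 36.3 TPM in Met + LPS. Neither transcript had overlapping groups, and they moved in opposite directions after LPS. Skil rose by 2.15 on the log2 scale (standard error 0.04, adjusted p = 5.5e-08) and Ski fell by 1.68 (standard error 0.05, adjusted p = 5.9e-07 in limma), and after rescaling these were 2.66 and -1.16. In Met + LPS vs. LPS both were higher, Skil by 0.67 (standard error 0.04, adjusted p = 5.7e-05) and Ski by 0.28 (standard error 0.05, adjusted p = 0.0061).

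**Figure D2:**
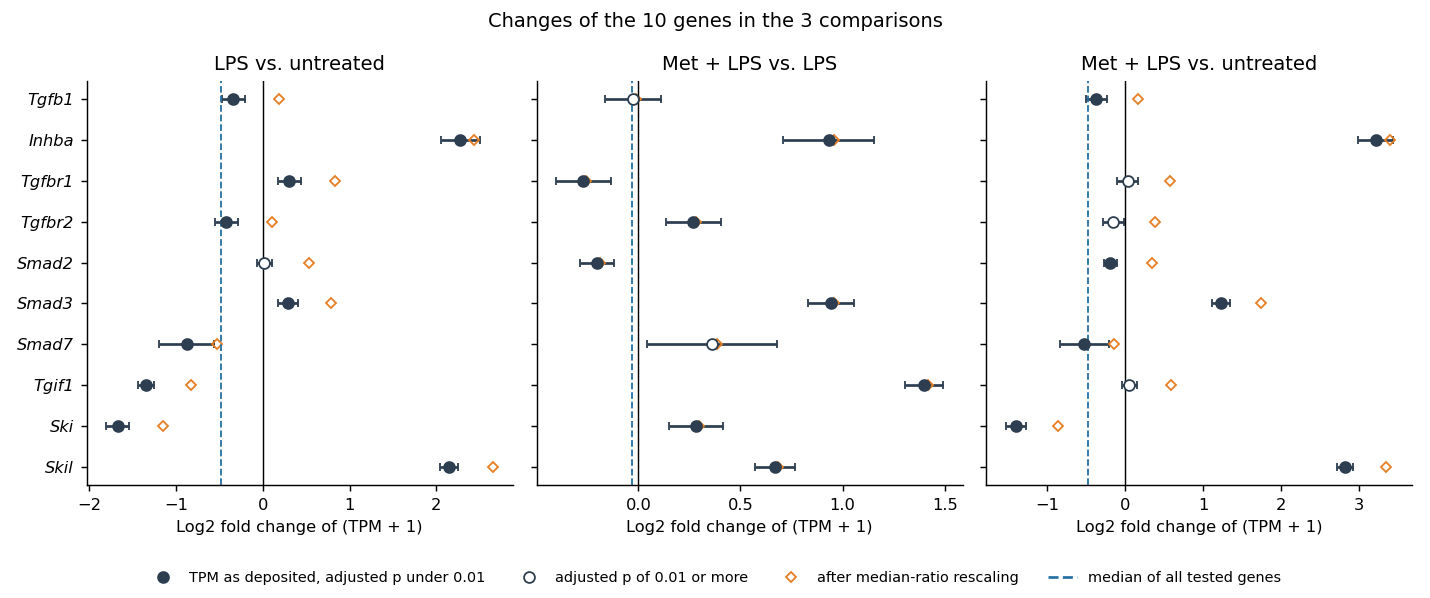
Log2 fold changes of TPM + 1 (horizontal axes) of the 10 genes in the 3 comparisons, with 95% intervals from limma. Inhba is drawn like the others against untreated cells, although it passed the filter only through the stimulated libraries and no test is given for it there. Diamonds give the values after median-ratio rescaling and the dashed line the median of all tested genes, which is -0.48 where untreated cells are the reference and -0.03 in Met + LPS vs. LPS.

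The ratio of 2 transcripts within a library does not depend on how libraries are scaled. The ratio of Skil to Ski was 0.263 and 0.257 in Untr, 3.90 and 3.83 in LPS and 4.97 and 5.13 in Met + LPS. The balance of these transcripts thus passed from mostly Ski to mostly Skil within 2 h of LPS, and the proteins were not measured. The ratio of Smad3 to Smad2 was 0.313 and 0.331 in Untr, 0.395 and 0.392 in LPS and 0.882 and 0.903 in Met + LPS, its larger step being that between LPS and Met + LPS. The ratio of Tgfbr1 to Tgfbr2 was 1.76 and 1.78 in Untr, 3.12 and 2.79 in LPS and 2.00 and 2.04 in Met + LPS. In each of these ratios the 3 groups did not overlap, but neither did 2 groups in 73.8% to 91.6% of all tested genes, depending on the comparison. With 2 libraries against 2 an exact two-sided permutation test cannot go below p = 0.333, so no test is given for them.

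**Figure D3:**
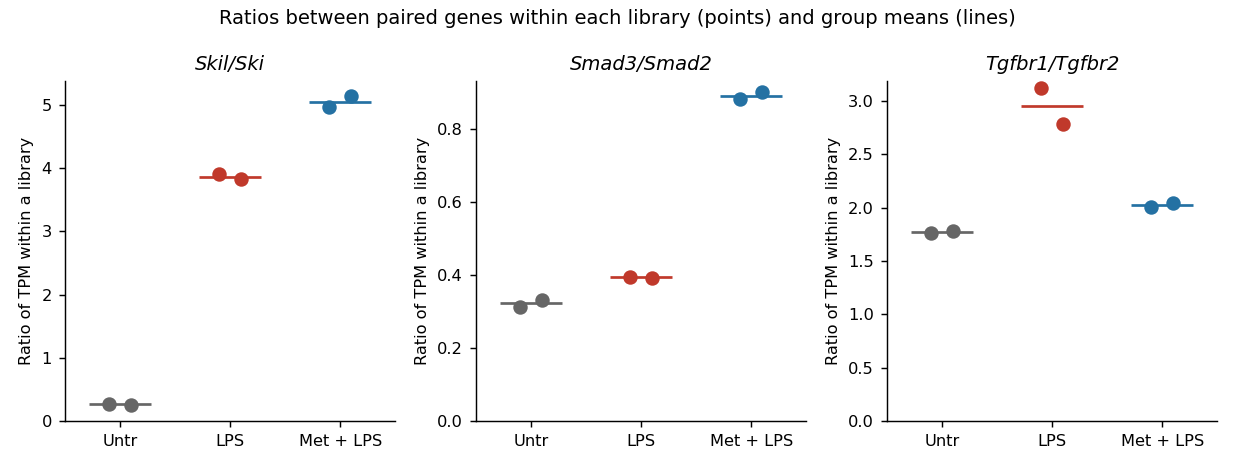
Ratios of TPM between paired genes within each library (vertical axes from 0), with a point for each library and a line for the mean of 2. Skil/Ski rises from a mean of 0.260 in Untr to 3.87 in LPS and 5.05 in Met + LPS, and Smad3/Smad2 is at a mean of 0.892 in Met + LPS against 0.394 in LPS.

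Ordered by level, the untreated cells had Tgfb1, Tgfbr1, Ski, Tgfbr2, Tgif1, Smad2, Skil, Smad3, Smad7 and Inhba from the top, with neighbouring genes in this order separated in both libraries. In LPS the order from the top was Tgfbr1, Tgfb1, Skil, Tgfbr2, Smad2, Ski, Tgif1, Smad3, Inhba and Smad7. In Met + LPS Skil was first, followed by Tgfbr1, Tgfb1, Tgfbr2, Tgif1, Smad2, Smad3, Ski, Inhba and Smad7. Tgfbr1 and Tgfb1 in Met + LPS, at means of 168 and 154 TPM with SDs of 10.6 and 13.2 (n = 2 each), overlapped in range, although Tgfbr1 was the higher in each library.

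Counted together, 9 of the 10 genes passed the test in LPS vs. untreated, 4 of them higher and 5 lower, but so did 76.3% of all tested genes (16.2% higher and 60.1% lower). The count is therefore near the background, and after rescaling 5 were higher and 2 lower, against 30.6% and 27.6% of all tested genes. At the study's additional cut-off of an absolute log2 fold change of 2, which 6.08% of the tested genes met, 2 of the 10 remained, Skil and Inhba. Inhba is counted although it passed the filter only through the stimulated libraries. The median absolute log2 fold change was 0.65 for the 10 genes and 0.65 for all tested genes.

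In Met + LPS vs. LPS, 8 of the 10 passed the test, 6 higher and 2 lower, against 32.6% of all tested genes (14.5% higher and 18% lower). With the study's cut-off of 0.7, which 8.28% of the tested genes met, 3 remained, Tgif1, Smad3 and Inhba, and Skil at 0.67 lay just under it. The median log2 fold change of the 10 was 0.32 and that of all tested genes -0.03. Inhba, Smad3, Tgif1 and Skil passed under every alternative run other than the fold-change cut-off, which Skil missed, including leaving out each of the 6 libraries in turn. The calls of Tgfbr1, Tgfbr2, Smad2 and Ski were lost, at adjusted p-values of 0.0102 to 0.0429, when either untreated or either LPS library was left out, and also without Met + LPS replicate 1 (Tgfbr2, Smad2 and Ski) or replicate 2 (Tgfbr1 and Smad2). Tgfbr1, Tgfbr2, Smad2 and Ski kept their direction without each library.

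In Met + LPS vs. untreated, 7 of the 10 passed the test, against 75.1% of all tested genes, and Skil and Inhba also had an absolute log2 fold change of 2, which 5.35% of all tested genes had. Here too Inhba is counted although it passed the filter only through the stimulated libraries. Skil was 7.28 times its untreated mean, or 2.82 on the log2 scale (limma adjusted p = 2.3e-08) and 3.34 after rescaling. Smad3 was 2.43 times its untreated mean (log2 fold change 1.23, adjusted p = 1.3e-06, or 1.745 after rescaling) and Ski 62.5% below its own (-1.39, adjusted p = 1.5e-06, or -0.86 after rescaling). The calls of Smad2 (-0.19, adjusted p = 0.0022) and Smad7 (-0.52, adjusted p = 0.0090) were lost without either untreated library or without Met + LPS replicate 2, and that of Smad7 also without Met + LPS replicate 1 and after rescaling, at -0.14 (adjusted p = 0.36). A pseudocount of 0.1 and no filter also lost the Smad7 call (limma adjusted p = 0.015 and 0.029). Tgfbr2 passed without Met + LPS replicate 1, at -0.23 (adjusted p = 0.0069). As deposited 3 of the 10 were higher and 4 lower, and after rescaling 7 were higher and 1 lower, against 33.4% and 29.7% of all tested genes. After rescaling the direction of Smad2 turned, to 0.34. The 3 comparisons share libraries, so they are not independent of each other.

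For context, 75 other genes of TGF-β, activin and BMP signaling were examined as a list by role, of which 47 were tested. In LPS vs. untreated 15 were higher and 23 lower, or 80.9% of the 47 past the test against 76.3% of all tested genes (16.2% higher and 60.1% lower). These counts include genes, such as Itgb8 and Acvr2b, that passed the filter only through libraries in which they were higher. After rescaling 24 were higher and 8 lower, against 30.6% and 27.6% of all tested genes. In Met + LPS vs. LPS 10 were higher and 11 lower, or 44.7% of the 47 past the test against 32.6% of all tested genes. The median log2 fold change of the list was -0.23 in LPS vs. untreated and -0.02 in Met + LPS vs. LPS.

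**Figure D4:**
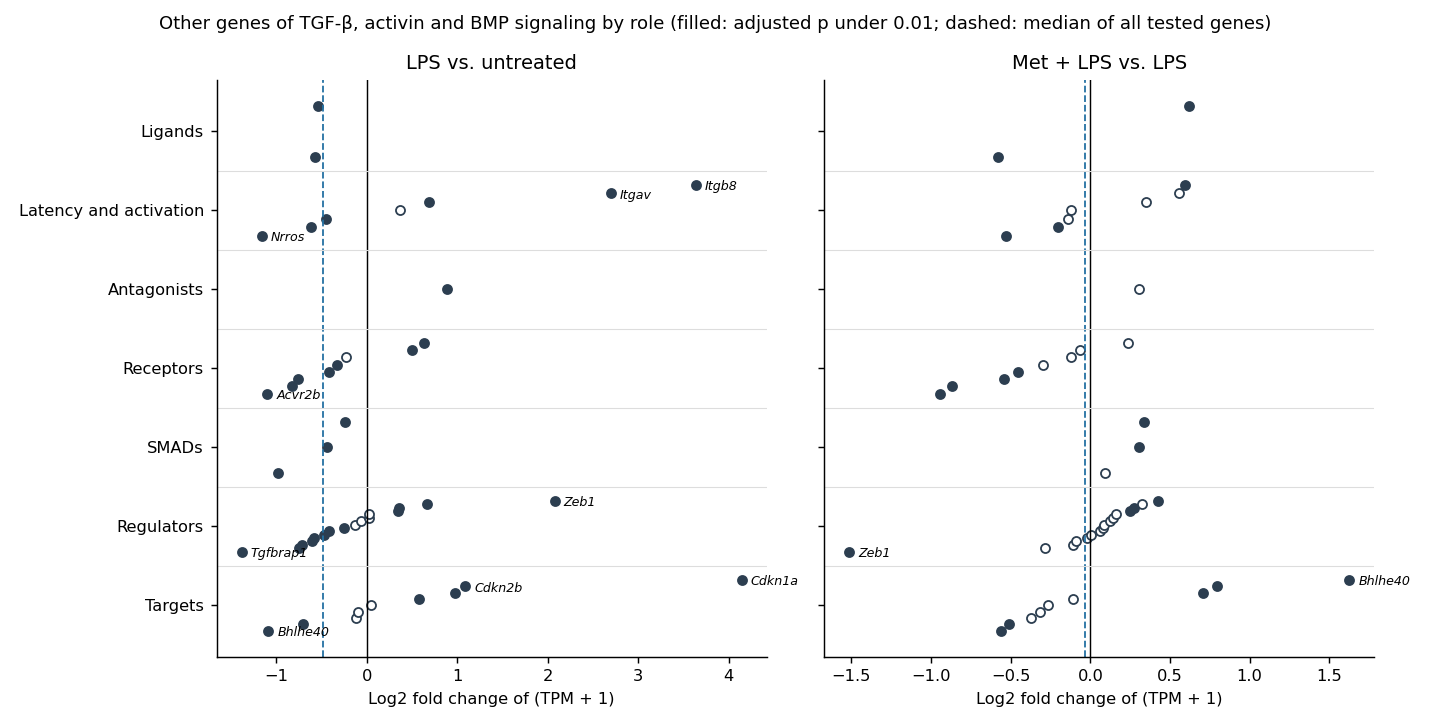
Log2 fold changes of TPM + 1 (horizontal axes) of 46 tested genes of the list by role, in LPS vs. untreated and in Met + LPS vs. LPS. Filled points passed the test, the dashed line is the median of all tested genes, and genes past an absolute value of 1 are named, such as Zeb1 at 2.08 after LPS and -1.51 with metformin. Filled points after LPS include genes, such as Itgb8 and Acvr2b, that passed the filter only through libraries in which they were higher.

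Among ligands, 2 of 12 were tested. Gdf3, which encodes a ligand that acts through activin-type receptors, was at 128 and 127 TPM in Untr, 85.6 and 89.6 TPM in LPS and 60.3 and 56.4 TPM in Met + LPS, and fell in Met + LPS vs. LPS (-0.58, adjusted p = 1.4e-04 in limma). In LPS vs. untreated Gdf3 was at -0.54, but at -0.02 after rescaling (limma adjusted p = 0.75). Bmp2 was higher in Met + LPS than in LPS (0.62, adjusted p = 0.0077), at 2.77 to 5.88 TPM. Tgfb2 and Tgfb3, the other TGF-β isoforms, were below the filter. Of 7 antagonists only Bambi, a decoy receptor, was tested, and it rose after LPS (0.89, adjusted p = 1.1e-04) and was at 0.30 in Met + LPS vs. LPS (adjusted p = 0.033).

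Among genes of latency and activation, 7 of 11 were tested. Itgav and Itgb8 encode the chains of the integrin αvβ8, which activates latent TGF-β. Itgb8 was at 0.190 and 0.151 TPM in Untr, 13.2 and 14.0 TPM in LPS and 8.71 and 9.54 TPM in Met + LPS. In untreated cells it rests on 16 and 12 reads, and it passed the filter on low values only through the stimulated libraries, so the log2 fold change of 3.64 after LPS is given with no test. Itgb8 was at -0.53 in Met + LPS vs. LPS (limma adjusted p = 0.0028). Itgav rose by 2.70 after LPS (adjusted p = 1.4e-08 in limma) from a mean of 59.7 TPM to 393 TPM and was at a mean of 341 TPM in Met + LPS (-0.21, adjusted p = 0.0043). Nrros, which encodes a protein that tethers latent TGF-β1 on myeloid cells, fell by 1.16 after LPS (-0.63 after rescaling), from 238 and 249 TPM to 105 and 112 TPM, while Furin, which encodes a protease that cleaves the TGF-β precursor, rose in both steps (0.68 and 0.60, adjusted p = 1.3e-04 and 9.0e-04).

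Of 11 other receptor genes 8 were tested, and 4 were lower and 0 higher in Met + LPS than in LPS, against 18% and 14.5% of all tested genes. The type I receptor genes Acvr1b and Acvrl1, of activin and of BMP9 and TGF-β in endothelium, fell in each step. Acvr1b had a mean level (± SD, n = 2) of 36.9 ± 1.96 TPM in untreated cells, 21.3 ± 0.438 after LPS and 10.6 ± 0.0669 with metformin added, and its log2 fold change was -0.76 after LPS (-0.25 after rescaling) and -0.94 with metformin (adjusted p = 1.8e-05 and 4.5e-05 in limma). Acvrl1 gave -0.82 (-0.32 after rescaling) and -0.87. The activin type II receptor genes differed, Acvr2a being higher (0.63) after LPS and Acvr2b, which passed the filter only through the untreated libraries, at -1.10, and neither passed the test in Met + LPS vs. LPS (-0.30 and -0.12, adjusted p = 0.011 and 0.48). The ligand chain Inhba and the type I receptor Acvr1b thus moved in opposite directions with metformin.

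Of the other SMAD genes, Smad4, the partner of SMAD2 and SMAD3, was at 67.7 and 69.5 TPM in Untr, 58.9 and 57.2 TPM in LPS and 76.2 and 71.3 TPM in Met + LPS. It was higher by 0.34 in Met + LPS vs. LPS (adjusted p = 0.0012), and in LPS vs. untreated it was at -0.24, which turned to 0.28 after rescaling. Smad1 fell after LPS (-0.98, or -0.50 after rescaling) and was higher by 0.30 in Met + LPS than in LPS (adjusted p = 0.0086).

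Among regulators, 16 of 17 were tested and 4 (25%) passed the test in Met + LPS vs. LPS, against 32.6% of all tested genes. Zeb1, which encodes a zinc finger and homeodomain repressor that binds SMADs, was at 1.06 and 1.01 TPM in Untr, 7.24 and 7.94 TPM in LPS and 2.05 and 1.97 TPM in Met + LPS. Its log2 fold change was 2.08 after LPS and -1.51 with metformin (adjusted p = 2.9e-06 and 6.5e-05 in limma), a course opposite to that of Tgif1. Its relative Zeb2 was at 0.67 after LPS and -0.11 with metformin (adjusted p = 2.4e-05 and 0.12). Tgfbrap1, which encodes a receptor-associated protein, fell by 1.38 after LPS (-0.89 after rescaling), and Nedd4l, a ubiquitin ligase that acts on SMAD2 and SMAD3, was higher by 0.42 with metformin (adjusted p = 7.9e-04).

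Of textbook targets of the pathway, 3 of the 10 tested were higher and 3 lower in Met + LPS than in LPS, against 14.5% and 18% of all tested genes. Bhlhe40, a transcriptional repressor, fell and rose again as Tgif1 did, with -1.09 after LPS (-0.58 after rescaling) and 1.63 with metformin (limma adjusted p = 1.6e-05). The inhibitors of DNA binding Id2 and Id3 were higher with metformin (0.80 and 0.71, adjusted p = 7.9e-05 and 5.8e-04). Cdkn1a, the cell cycle inhibitor p21, rose by 4.14 after LPS and fell by 0.56 with metformin (adjusted p = 5.0e-05), and Tgfbi fell by 0.51 with metformin (adjusted p = 2.1e-04). Cdkn1a, Id2 and Bhlhe40 are also controlled by other pathways.

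The gene nearest in pattern to each of the 10, by Euclidean distance of centred log2(TPM + 1) over the 6 libraries, was Pkp4 for Smad3 (distance 0.0307), Il7r for Tgif1 (0.121), Ets2 for Skil (0.144), Disp1 for Ski (0.0748) and Ppp1r15a for Inhba (0.229). Il7r, which encodes the interleukin-7 receptor chain, was at 355 and 335 TPM in Untr and at 140.4 and 133 TPM in LPS. In Met + LPS it was at 377 and 339.5 TPM. Its LPS libraries were the lowest, as for Tgif1, but its Untr and Met + LPS libraries overlapped, whereas those of Tgif1 did not. For the genes that changed less, the nearest were Zc3h3 for Tgfb1 (0.0427), Shoc2 for Tgfbr1 (0.0667), Dnajb12 for Tgfbr2 (0.0456), Atp2a2 for Smad2 (0.0264) and Rprd1a for Smad7 (0.0949). With 6 libraries in 3 groups and centred values, a small distance says only that the changes between groups are alike on this scale, not the levels. For Inhba this scale shrinks the change from untreated cells, where Ppp1r15a was at 33.5 and 34.4 TPM.

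In the genome build of the files, GRCm38, the genes lie on chromosome 7 from 25687002 to 25705077 (Tgfb1, ENSMUSG00000002603), chromosome 13 from 16011851 to 16031621 (Inhba, ENSMUSG00000041324), chromosome 4 from 47353222 to 47414931 (Tgfbr1, ENSMUSG00000007613) and from 155154075 to 155222592 (Ski, ENSMUSG00000029050), chromosome 9 from 116084293 to 116175360 (Tgfbr2, ENSMUSG00000032440) and from 63646767 to 63757994 (Smad3, ENSMUSG00000032402), chromosome 18 from 76241580 to 76305731 (Smad2, ENSMUSG00000024563) and from 75367529 to 75395935 (Smad7, ENSMUSG00000025880), chromosome 17 from 70844205 to 70853546 (Tgif1, ENSMUSG00000047407) and chromosome 3 from 31095058 to 31122577 (Skil, ENSMUSG00000027660). The values cover all exons of a gene.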

How the data were processed

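Poly-A RNA was sequenced from a single end. The authors used STAR 2.6.1d for alignment to GRCm38 (annotation release 94), counted reads per gene with featureCounts of Subread 1.6.3 and deposited TPM for 54532 genes in 6 libraries. How counts became TPM is not stated in the sources used here. The authors' own test, DESeq2 on counts, was not used, since TPM are no counts.

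The 12755 genes that reached 1 TPM in 2 or more libraries entered a linear model of log2(TPM + 1), fitted jointly to the 3 groups (3 residual degrees of freedom) by limma 3.58.1 (R 4.3.3). Its eBayes step used a trend on mean level, and p-values were adjusted by Benjamini-Hochberg. The procedure was tested on simulated reads. Passing means an adjusted p-value under 0.01, and the study's fold-change cut-offs are given beside it. The study gave none for Met + LPS vs. untreated, where its cut-off for LPS vs. untreated was used. Reads were recovered as whole multiples of a step in TPM times exon length (GENCODE M21, 54495 genes matched), within 0.05 of a whole number for 97.2% to 97.5% of the values under 1000 reads, for depth, counting intervals and limma voom. Counting intervals ignore PCR duplicates. Same-numbered replicates did not deviate together (correlations between groups of -0.00365 to 0.0284), and replicates differed by more than sampling noise (chi-square per degree of freedom 1.98 to 3.76).

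Named are the 10 genes and, of a list by role, the largest changes past an absolute log2 fold change of 1, at most 5 per direction and comparison, with at most 3 more per role, and the nearest gene in pattern. A gene of the list is counted but not reported here by name or plotted. The genes and lists were chosen with earlier results of these data known. The alternatives were another pseudocount, no filter or 5 TPM, rescaling, the compared groups only, a replicate block, no trend, other cut-offs, voom, and leaving out each library. Plots were drawn with matplotlib 3.10.9 in Python 3.11.15.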

Additional observations from a re-analysis of the deposited data

How the results depend on the processing

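With the study's fold-change cut-offs added, the number of the 10 genes past the test was 2 in LPS vs. untreated, 3 in Met + LPS vs. LPS and 2 in Met + LPS vs. untreated. In Met + LPS vs. LPS, where 8 passed, 5 passed with no filter, 4 with eBayes without a trend and 4 with the compared groups only. Leaving out each library in turn gave 8 to 9, 4 to 6 and 5 to 7 in the 3 comparisons, from fits with fewer residual degrees of freedom in which the lone library of a group is assumed to vary like the others. With the replicate number as a block, 9, 6 and 6 passed, the calls of Tgfbr2 and Ski in Met + LPS vs. LPS and of Smad7 in Met + LPS vs. untreated being lost. The block left the log2 fold changes unchanged, and whether the numbers pair the libraries is not stated in the sources used here. After median-ratio rescaling the log2 fold changes of Tgfb1 and Tgfbr2 in LPS vs. untreated turned to 0.18 and 0.10, and in Met + LPS vs. untreated those of Tgfb1, Tgfbr2 and Smad2 turned to 0.17, 0.38 and 0.34, because the rescaling shifts all genes of a library together. Among values past no cut-off, Tgfb1 in Met + LPS vs. LPS ranged from -0.114 to 0.0588 with a library left out, turning without Met + LPS replicate 2, and Tgfbr1 in Met + LPS vs. untreated from -0.0265 to 0.101, turning without Met + LPS replicate 1. Of 417 values of single genes under an alternative, 357 kept their direction and their side of the cut-off, 48 fell short of it, 5 newly passed it and 7 turned. Smad7 was not tested with a minimum of 5 TPM. Depth limits Inhba in untreated cells and Smad7 throughout.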
